A study of Homo sapiens with 6 samples.

Results

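The genes described here are the components and target genes of Wnt signalling in SCC25 cells, an established line from an oral squamous cell carcinoma. They were chosen by name: every line of the signal table whose symbol is WNT or FZD followed by a digit, with 22 further receptors, inhibitors, intracellular components, transcription factors and target genes. This gave 51 of the 34694 genes listed, and each of the 51 symbols is a current RefSeq symbol. Total RNA was hybridised to Illumina expression arrays from 3 samples labelled as SCC25 with 2.0 mM aspirin and 3 labelled as untreated SCC25, each at 72 h, with 1 array per sample. Aspirin inhibits the prostaglandin-forming cyclooxygenases. Chip 1 held replicates 1 and 3 of either group, and chip 2 held replicate 2. The labels do not say whether the replicates of a group were grown separately, and the p-values therefore cover only the spread among these 6 samples, part of which may be technical.

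In canonical Wnt signalling a secreted Wnt protein binds a Frizzled receptor and the co-receptor LRP5 or LRP6, which stops a cytoplasmic complex of AXIN, APC and the kinase GSK3 from marking beta-catenin (CTNNB1) for destruction. Beta-catenin then joins TCF and LEF factors on DNA and raises a set of target genes, several of which (AXIN2, DKK1, RNF43, ZNRF3, NKD1) dampen the pathway in turn. In squamous epithelia the pathway is known for its part in hair follicle and tooth development and in the upkeep of basal cells.

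Values are normalized signals on the log2 scale after background correction, and a difference is the mean of the aspirin arrays minus that of the control arrays. The constant of 16 intensity units added before the log makes differences of dim genes smaller than the true ones. A gene was above background on an array where the detection score was over 0.95 or the signal lay more than 3 SD over the mean background. Mean background was 95.4 to 116 intensity units and 15441 to 15949 genes were above it per array. The 15850 genes above background on at least 3 arrays were tested together, and a gene passed at an adjusted p under 0.05 (limma, Benjamini-Hochberg over all of them). Replicate 1 of both groups stood apart from replicates 2 and 3 on the second principal component, which held 22.4% of the variance. All 12 squamous epithelial markers were above background on every array, among them KRT5, KRT14 and TP63, and 5 of them fell with aspirin.

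Of the 51 genes, 36 were tested, 29 were above background on all 6 arrays and 12 on none. With aspirin 3 rose (AXIN1, RNF43 and FZD10) and 3 fell (WNT10A, ASCL2 and DKK1), and 30 did not pass. These 6 are 16.7% of the 36, against 20.6% of all genes tested that passed (10.7% higher and 9.93% lower), so the share of Wnt genes that passed was no larger than that of genes in general. Of all the calls 51.8% were higher with aspirin, or 40.1% where arrays were scaled to equal medians instead of quantiles. Without both replicate 2 arrays 1 of the 36 passed, WNT10A, against 5.89% of all genes tested in that fit. Without both replicate 3 arrays WNT10A was again the 1 that passed, against 3.0% of all genes tested. The median difference of the 36 was -0.07, against 0.02 over all genes tested. Aspirin and control arrays did not overlap for 12 of the 36, 5 higher and 7 lower with aspirin, against 39.1% of all genes tested. Arrays of the same replicate number deviated together, and with the replicate number as a block in the fit 7 of the 36 rose and 9 fell, together 44.4%, against 33.6% of all genes tested in that fit (17.6% higher and 16% lower). With the chip as a block 4 of the 36 rose and 3 fell, against 22.7% of all genes. The 10 genes that passed only with the replicate block are given in their group, with the adjusted p with and without it. The plot of differences by group of genes shows WNT10A apart from the other ligands.

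**Figure D1:**
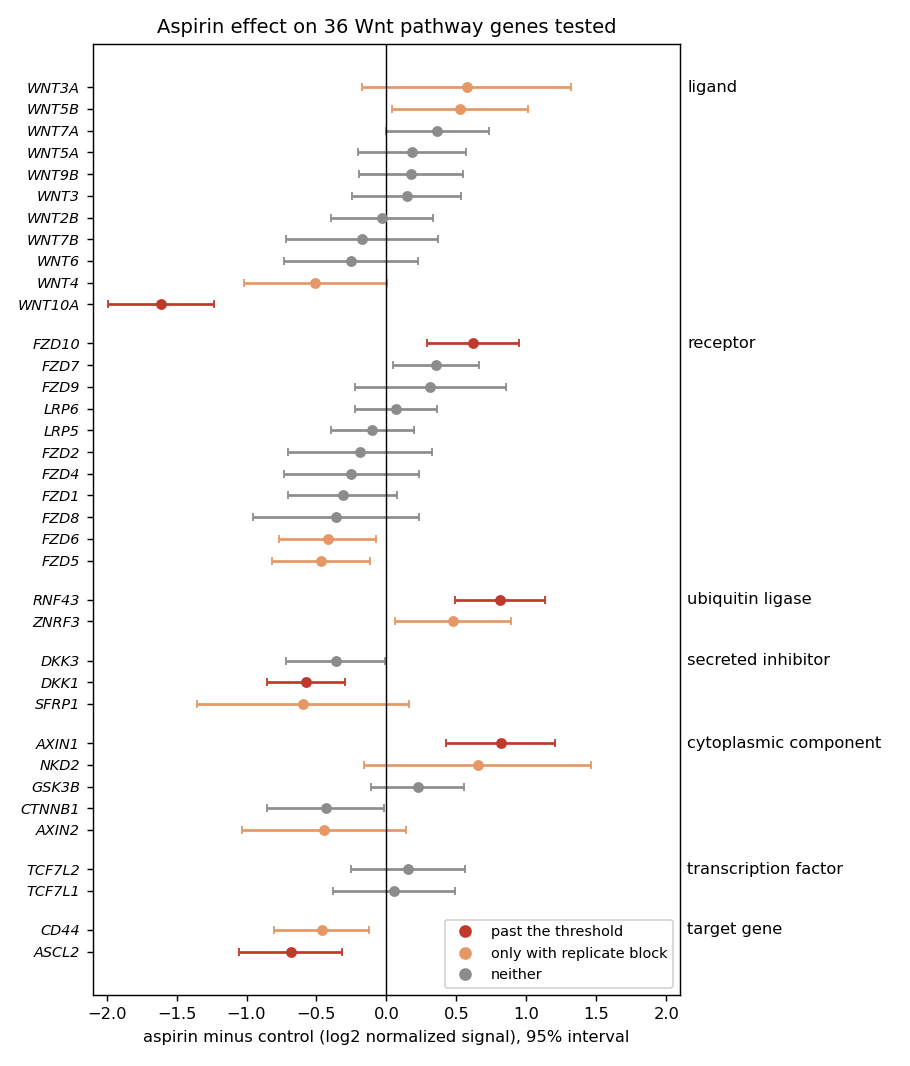
Difference of each of the 36 Wnt pathway genes tested, aspirin minus control on the log2 scale (points), with its 95% interval from the fit without a block (bars), grouped by role. WNT10A lies at -1.61 and the other 35 genes lie between -0.69 and 0.82; red points passed the threshold and orange points passed only with the replicate block.

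Of the 19 Wnt ligands, 11 were tested and 1 passed. WNT10A, a ligand known from tooth and hair development, fell 3.06-fold. Its level was 5.58, 5.94 and 5.94 in aspirin arrays 1 to 3, against 7.42, 7.25 and 7.63 in control arrays 1 to 3. All aspirin arrays lay far below all control arrays, and the gap between the groups exceeded the spread within either. The difference was -1.61 ± 0.17 (SE, n = 3 per group, adjusted p = 0.000771, limma). It passed on the chip 1 arrays alone (-1.77, adjusted p = 0.0218, limma), and the chip 2 pair differed by -1.30. It also passed without each single array and without each replicate pair, where leaving out the replicate 2 pair is the chip 1 fit again. An alternative background estimated from all listed genes, called the all-gene background from here on, was 132 to 175 intensity units. On each array this exceeded the median signal, which was 102 to 127. Under it WNT10A differed by -0.27 and still passed (adjusted p = 0.0117, limma); with no background correction it was -0.85. The RefSeq promoter of WNT10A, from 250 bases before to 50 after its start (GRCh38.p14, chr2:218880602-218880901, plus strand), is shown because this gene had the largest difference of the 36.
WNT10A: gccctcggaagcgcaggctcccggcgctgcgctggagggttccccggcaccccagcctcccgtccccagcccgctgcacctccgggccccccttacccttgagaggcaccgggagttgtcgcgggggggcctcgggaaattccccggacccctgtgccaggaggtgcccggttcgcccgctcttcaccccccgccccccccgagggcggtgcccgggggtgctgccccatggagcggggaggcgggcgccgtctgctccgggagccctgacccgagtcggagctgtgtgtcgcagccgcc

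The other 10 ligands tested did not pass. WNT4, a ligand of epithelial and kidney development, had 6.94, 7.38 and 6.94 in aspirin arrays 1 to 3, against 7.90, 7.74 and 7.14 in control arrays 1 to 3. The aspirin arrays were lower within each replicate pair, but control replicate 3 lay below aspirin replicate 2. Its difference was -0.51 ± 0.22 (adjusted p = 0.146, and 0.0479 with the replicate block, limma). WNT3A, the ligand most used to activate beta-catenin in cell culture, had 6.40, 7.09 and 7.03 with aspirin, against 5.50, 6.57 and 6.73 without it. Each aspirin array was above the control array of its number, and replicate 1 was the lowest of both groups. The difference of WNT3A was 0.57 ± 0.33 (adjusted p = 0.258, and 0.0203 with the replicate block, limma). WNT5B, which acts mostly outside the beta-catenin branch, had 5.26, 5.59 and 5.48 with aspirin, against 4.47, 5.0 and 5.28 in controls, with 3 aspirin arrays and 1 control array above background. Its detection scores were 0.50 to 0.72 with aspirin and 0.49 to 0.75 in controls, so it was above background by the signal alone. The aspirin arrays, where it was higher, met the filter by themselves. WNT5B differed by 0.53 ± 0.21 (adjusted p = 0.120, and 0.0270 with the replicate block, limma).

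The remaining 7 ligands tested passed in neither fit. WNT7A, a ligand of limb and reproductive tract development, was nearest the threshold (0.36 ± 0.16, adjusted p = 0.147, and 0.0563 with the replicate block, limma). WNT5A, the main ligand of the branches that do not use beta-catenin, differed by 0.18 (95% interval -0.21 to 0.57), WNT3 by 0.14 (-0.25 to 0.53) and WNT7B by -0.17 (-0.72 to 0.37). WNT2B, WNT6 and WNT9B had differences from -0.25 to 0.18. The 8 ligands not tested were WNT1, WNT2, WNT8A, WNT8B, WNT11 and WNT16, above background on no array, and WNT9A and WNT10B, each above background on 1.

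Of the Frizzled receptors and LRP co-receptors, 11 of 12 were tested and 1 rose. FZD10, a Frizzled receptor with little expression in most adult tissues, had 6.01, 5.98 and 5.84 in aspirin arrays 1 to 3, against 5.43, 5.13 and 5.42 in control arrays 1 to 3. Every aspirin array was above every control array. The rise was 0.62 ± 0.14 (1.54-fold, adjusted p = 0.0181, limma). The call was lost without aspirin replicate 2 (adjusted p = 0.0581) and without control replicate 2 (adjusted p = 0.0621, limma). It was lost too under the all-gene background, where FZD10 differed by 0.05 (adjusted p = 0.0639, limma).

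FZD5 and FZD6 were lower on every aspirin array than on every control array without passing. FZD5, a receptor for canonical ligands, had 5.89, 5.51 and 5.50 with aspirin, against 6.12, 6.0 and 6.18 in controls. Its difference was -0.47 ± 0.15 (adjusted p = 0.0632, and 0.0296 with the replicate block, limma). FZD6, which acts in planar polarity of skin and hair, had 9.0, 8.93 and 9.10 with aspirin, against 9.68, 9.26 and 9.35 in controls, a difference of -0.42 ± 0.15 (adjusted p = 0.0860, and 0.0436 with the replicate block, limma). FZD7 had 7.07, 7.11 and 6.87 with aspirin and 6.75, 6.62 and 6.61 in controls. Its arrays did not overlap either, with aspirin higher (0.36, adjusted p = 0.0978, and 0.0519 with the replicate block, limma).

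FZD1 had 5.29, 5.31 and 5.13 with aspirin, against 5.88, 5.39 and 5.40 in controls, with all aspirin arrays lower but no call (-0.31, adjusted p = 0.235, limma). The groups overlapped for the 6 other receptors tested. FZD2 had 7.03, 7.41 and 7.53 with aspirin and 7.06, 7.66 and 7.82 in controls. FZD4 had 4.99, 5.40 and 5.80 with aspirin and 5.48, 5.64 and 5.82 in controls. In both, replicate 1 was the lowest array of its group. FZD8, above background on 4 arrays, had 4.63, 5.33 and 4.97 with aspirin and 4.82, 5.70 and 5.50 in controls. FZD9 had 5.84, 6.78 and 6.48 with aspirin and 5.93, 5.96 and 6.27 in controls. Replicate 1 was again lowest in either group. Differences of these 4 ran from -0.36 to 0.31.

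The groups overlapped for both co-receptors. LRP5, which with LRP6 forms the signalling complex with Frizzled, had 8.36, 8.24 and 8.19 with aspirin and 8.32, 8.32 and 8.46 in controls (-0.10, 95% interval -0.40 to 0.20). LRP6 had 5.01, 5.08 and 5.11 with aspirin and 5.06, 4.87 and 5.06 in controls (0.07, 95% interval -0.23 to 0.36). FZD3 was above background on no array and was not tested.

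RNF43 and ZNRF3 are ubiquitin ligases that take Frizzled receptors off the cell surface, and R-spondins acting through LGR4 and LGR5 counter them. RNF43 rose, with 6.39, 6.38 and 6.37 in aspirin arrays 1 to 3, against 5.36, 5.63 and 5.71 in control arrays 1 to 3. The aspirin arrays were nearly equal and all above the controls. The difference was 0.81 ± 0.14 (1.76-fold, adjusted p = 0.00575, limma), and it passed without each single array. Under the all-gene background its rise was 0.08 (adjusted p = 0.0179, limma) and with no background correction 0.34. ZNRF3 had 6.30, 6.78 and 6.30 with aspirin, against 5.85, 6.22 and 5.87 in controls, so that each aspirin array was above every control array. Its difference of 0.48 ± 0.18 did not pass without a block (adjusted p = 0.100, limma) and passed with the replicate block (adjusted p = 0.0164) and with the chip as a block (adjusted p = 0.0280, limma). LGR5 was above background on no array and LGR4 on 1 control array, and neither was tested.

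All 3 secreted inhibitors were tested and 1 fell. DKK1, which binds LRP5 and LRP6 and blocks their use by Wnt ligands, had 10.38, 10.47 and 10.42 in aspirin arrays 1 to 3, against 10.98, 10.97 and 11.04 in control arrays 1 to 3. The spread within each group was small beside the gap between them. The fall was -0.57 ± 0.12 (1.49-fold, adjusted p = 0.0136, limma). The call was lost without aspirin replicate 3 (adjusted p = 0.0506) and without control replicate 3 (adjusted p = 0.0551, limma).

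SFRP1, which binds Wnt proteins outside the cell, had 9.98, 11.01 and 10.87 with aspirin, against 10.59, 11.53 and 11.53 in controls. Replicate 1 was about 1 log2 unit below the others in both groups, and within each replicate pair the aspirin array was lower, with differences of -0.61, -0.52 and -0.66 in pairs 1 to 3. The difference of -0.60 ± 0.33 did not pass without a block (adjusted p = 0.246, limma) and passed with the replicate block (adjusted p = 0.00691). It also passed when replicate 1 of each group was left out (-0.59, adjusted p = 0.0270, limma). DKK3, a divergent Dickkopf protein, had 10.73, 10.98 and 10.68 with aspirin, against 10.95, 11.21 and 11.32 in controls. It did not pass in either fit (-0.36 ± 0.15, adjusted p = 0.136, and 0.0709 with the replicate block, limma).

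Markers of other cell types were read beside the fall of DKK1. Of 10 fibroblast markers, 4 were above background on all arrays (LUM, COL1A1, COL1A2 and FAP) and 4 fell with aspirin (LUM, DCN, COL1A1 and COL1A2). FAP did not pass (adjusted p = 0.0611, limma), and THY1, PDGFRA and PDGFRB were above background on no array. DCN was above background on no aspirin array and met the filter on its control arrays alone, so the filter favoured a fall over a rise. The summed signal of the 10 fibroblast markers above background was 108 to 200 intensity units on aspirin arrays, against 397 to 1177 on control arrays. The 12 squamous markers summed to 38489 to 46965 on aspirin arrays, against 55630 to 69925 on control arrays. Of 6 leukocyte markers CD14 fell and the other 5 were above background on no array, and of 6 endothelial markers 0 passed and 3 were above background on no array. The part of these cell types in the levels of the Wnt genes was not tested, and in RNA of whole cultures fewer cells of a type and less RNA per cell cannot be told apart.

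Of the 7 cytoplasmic components, 5 were tested and 1 rose. AXIN1, the scaffold that holds the destruction complex together, had 9.39, 9.02 and 9.13 in aspirin arrays 1 to 3, against 8.42, 8.10 and 8.56 in control arrays 1 to 3. All aspirin arrays lay above all control arrays. Its rise of 0.82 ± 0.17 (1.76-fold, adjusted p = 0.0121, limma) passed without each single array. AXIN1, CTNNB1, DKK1 and 6 other genes of the 36 have detection scores off the grid of single-probe values, so their signals may summarise several probes, whose agreement the table does not show. The promoter of AXIN1 (RefSeq, GRCh38.p14, chr16:352674-352973, minus strand) is shown as that of a gene that rose.
AXIN1: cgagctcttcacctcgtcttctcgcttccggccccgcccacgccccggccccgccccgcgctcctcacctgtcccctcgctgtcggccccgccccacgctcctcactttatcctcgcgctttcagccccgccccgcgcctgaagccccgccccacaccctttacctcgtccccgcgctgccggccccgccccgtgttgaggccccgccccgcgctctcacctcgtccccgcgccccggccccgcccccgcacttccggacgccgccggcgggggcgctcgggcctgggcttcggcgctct

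CTNNB1, which encodes beta-catenin, had 5.96, 6.11 and 5.70 with aspirin, against 6.07, 6.62 and 6.40 in controls. Each aspirin array was below the control of its number, and the groups overlapped. Its difference was -0.43 ± 0.18 (adjusted p = 0.130, and 0.0519 with the replicate block, limma). Detection scores of CTNNB1 were 0.77, 0.87 and 0.98 with aspirin and 0.72, 0.75 and 0.98 in controls. Replicates 1 and 2 of both groups were therefore above background by the signal alone. GSK3B, the kinase that marks beta-catenin, had 10.33, 10.21 and 10.13 with aspirin, against 9.81, 10.16 and 10.03 in controls, and its interval held 0 (0.22, -0.11 to 0.56). APC was above background on no array, with raw signals of 104.7, 120.0 and 100.2 intensity units with aspirin and 106.5, 124.0 and 104.7 in controls, so no difference was detectable.

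AXIN2, a feedback inhibitor widely used as a readout of beta-catenin activity, was above background on 2 aspirin arrays and 3 control arrays and had 5.54, 4.88 and 4.76 with aspirin, against 5.92, 5.44 and 5.16 in controls. Replicate 1 was the highest of both groups, and the aspirin array was lower within every pair, with differences of -0.38, -0.55 and -0.41 in pairs 1 to 3. Its difference of -0.45 ± 0.26 passed only with the replicate block (adjusted p = 0.261, and 0.0221 with it, limma), and was -0.03 with the all-gene background. NKD2, an inhibitor that binds Dishevelled, had 9.65, 10.27 and 10.43 with aspirin, against 8.62, 9.80 and 9.97 in controls. Here the aspirin array was higher within every pair, and replicate 1 was the lowest of both groups. The difference of NKD2 was 0.65 ± 0.35 (adjusted p = 0.235, and 0.0139 with the replicate block, limma). The related NKD1 was above background on no array.

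**Figure D2:**
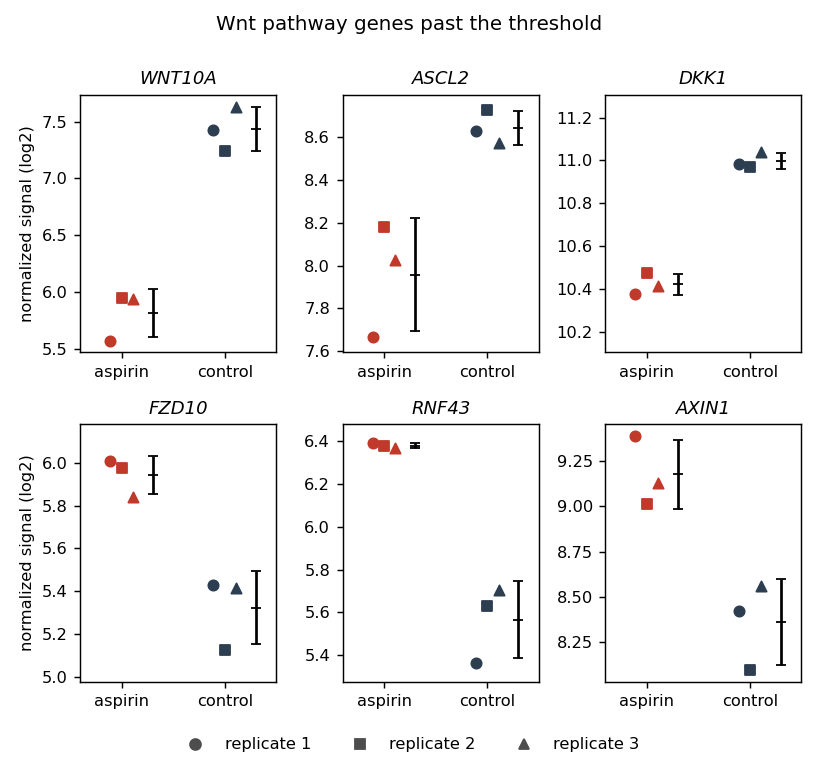
Normalized signal (log2) on each array of the 6 Wnt pathway genes that passed, aspirin left and control right, with the mean and SD of each group beside the points and replicate numbers as symbols. For all 6 genes the arrays of the groups do not overlap; for DKK1 the aspirin arrays lie between 10.38 and 10.47 and the control arrays between 10.97 and 11.04.

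Of the 4 TCF and LEF factors, 2 were tested. TCF7L1, mainly a repressor of Wnt targets, had 5.74, 5.27 and 5.81 with aspirin and 5.45, 5.38 and 5.81 in controls (0.06, 95% interval -0.38 to 0.49). TCF7L2, the factor best known from colon epithelium, had 5.44, 4.91 and 5.09 with aspirin and 5.12, 5.09 and 4.78 in controls (0.15, -0.25 to 0.56). By limma 0 of the 2 passed, also with the replicate block, and 0 had an unadjusted p under 0.05. LEF1 and TCF7 were above background on no array.

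Both target genes were tested, and 1 fell. ASCL2, a transcription factor and beta-catenin target of intestinal stem cells, had 7.67, 8.18 and 8.02 in aspirin arrays 1 to 3, against 8.63, 8.73 and 8.57 in control arrays 1 to 3. All aspirin arrays were below all controls, with aspirin replicate 1 lowest. The fall was -0.69 ± 0.16 (1.61-fold, adjusted p = 0.0201, limma). It lost its call without aspirin replicate 3 (adjusted p = 0.0554), control replicate 2 (adjusted p = 0.0647) or control replicate 3 (adjusted p = 0.0546, limma). The all-gene background gave -0.42. CD44, the hyaluronan receptor, had 10.06, 9.81 and 9.71 with aspirin, against 10.43, 10.18 and 10.36 in controls. All aspirin arrays were lower than all controls, and the difference of -0.46 ± 0.15 fell just outside the threshold without a block (adjusted p = 0.0595, and 0.0231 with the replicate block, limma). CD44 passed with median scaling (-0.61, adjusted p = 0.0256) and cyclic loess (-0.51, adjusted p = 0.0397, limma).

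Promoters were searched on both strands for the TCF and LEF word CTTTGAA, for its variant CTTTGAT and for a further variant, CTTTGTT, which share their first 5 letters and never match the same strand at the same place. Of the 51 genes, 35 had a promoter entry, 43 entries in all because some genes have several starts. At least 1 word was in 4 of these 43, against 11.5% of 35116 RefSeq promoters of the same length. Of the 6 genes that passed, 4 had an entry. DKK1 held 2 words, and WNT10A, AXIN1 and both starts of RNF43 held none. The other genes with a word were TCF7, TCF7L2 and WNT3. The DKK1 promoter (RefSeq, GRCh38.p14, chr10:52314031-52314330, plus strand) carries CTTTGAA from base -95 to -89 and CTTTGTT from -76 to -70 relative to its start, shown in capitals. A match is a run of letters, not a binding site.
DKK1: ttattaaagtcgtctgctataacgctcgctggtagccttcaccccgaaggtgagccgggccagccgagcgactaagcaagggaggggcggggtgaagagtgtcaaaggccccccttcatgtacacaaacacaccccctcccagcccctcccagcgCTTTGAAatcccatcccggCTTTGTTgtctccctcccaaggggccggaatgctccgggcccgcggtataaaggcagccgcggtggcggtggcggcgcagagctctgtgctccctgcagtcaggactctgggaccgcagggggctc

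For SFRP1, NKD2, WNT3A and AXIN2 the gap between replicate 1 and the other replicates was larger than the aspirin difference. The same held for some genes that passed in neither fit, among them FZD2, FZD8 and FZD9. In a test of the replicate number over both groups, added after the data were seen, SFRP1 and NKD2 passed (2 of 36, against 2.88% of all genes tested). SFRP1 was higher by 0.99 in replicate 2 and by 0.92 in replicate 3 than in replicate 1 (adjusted p = 0.0225, limma). NKD2 was higher by 0.90 and 1.06 (adjusted p = 0.0429, limma). WNT3A, with 0.88 and 0.93, did not pass (adjusted p = 0.0514, limma). AXIN2, with -0.57 and -0.77, did not pass either (adjusted p = 0.0552, limma). Without both replicate 1 arrays 3 of the 36 rose and 6 fell with aspirin, where 21.1% of all genes tested passed. The 6 genes that passed with all arrays passed there too, with adjusted p from 0.00115 to 0.0404 (limma).

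**Figure D3:**
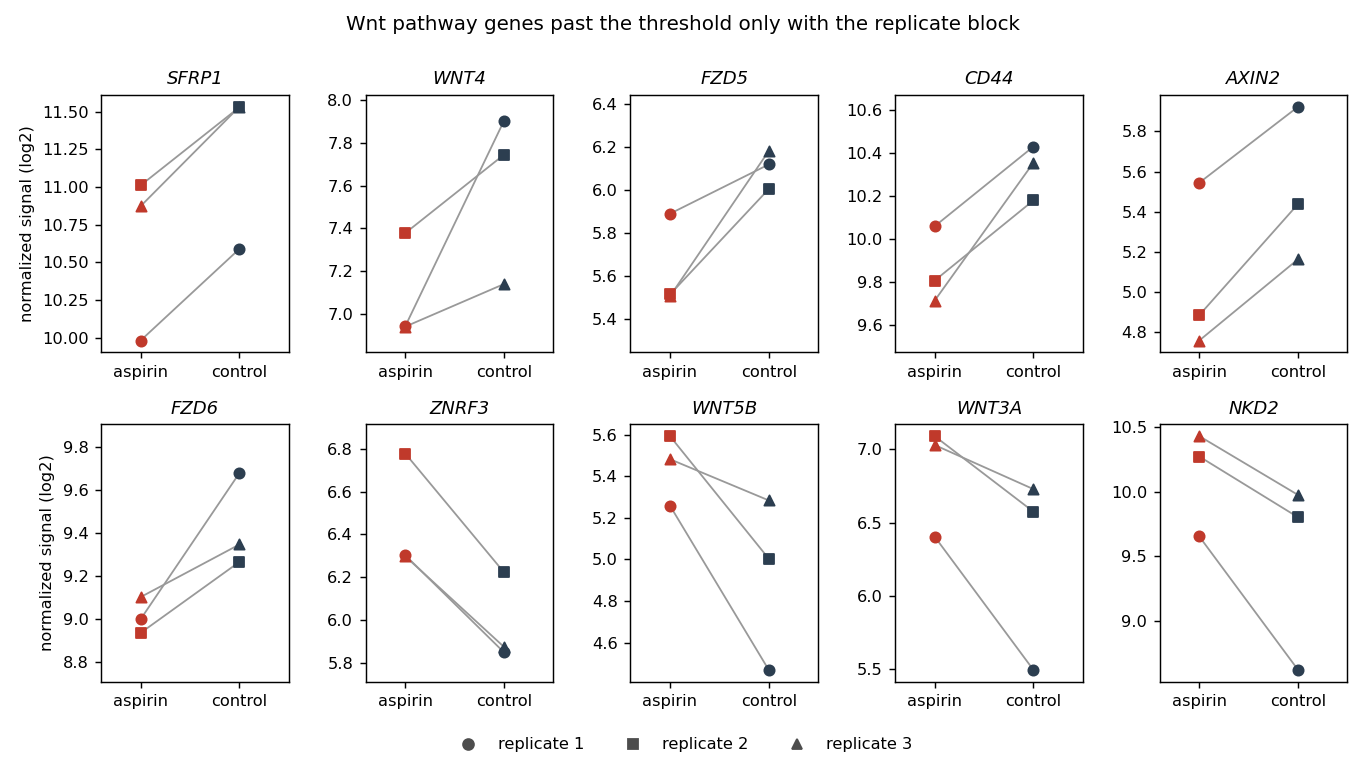
Normalized signal (log2) of the 10 Wnt pathway genes that passed only with the replicate block, aspirin left and control right, with grey lines joining arrays of the same replicate number. Within each of the 10 genes the 3 lines run the same way, while replicate 1 of SFRP1 lies at 9.98 with aspirin and 10.59 in the control, below all other arrays of its group.

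Other genes of the pathway were taken from 7 lists, described by their counts and medians, with 20.6% of all genes passing. Among cytoplasmic components outside the genes above, 19 were tested, 5 rose and 0 fell, with a median of 0.27 against 0.02 over all genes; without any 1 array 2 to 4 passed. DVL3, a Dishevelled protein that relays the signal from Frizzled, rose by 0.93 ± 0.18 (adjusted p = 0.00918, limma). DACT3, which binds Dishevelled, was above background on all aspirin arrays and no control array and was at least 1.72-fold higher (adjusted p = 0.00590, limma); the floor is the lowest signal of a detected gene on each control array, or the gene's own signal where higher. DIXDC1, a partner of Dishevelled and AXIN, was likewise above background on all aspirin arrays and no control array. It was at least 1.47-fold higher by the same measure (adjusted p = 0.0381, limma). The detection scores of DIXDC1 on array 1 were close to the limit of 0.95 on either side, 0.95242 with aspirin and 0.94955 in the control. On control arrays 1 and 3 its own signal was above the lowest of a detected gene, so the bound is near the plain 1.49-fold difference. Both DACT3 and DIXDC1 met the filter on their aspirin arrays alone, so the filter favoured a rise over a fall for them. They count among the 5 that rose, and the median of the list includes them. FBXW11, a ubiquitin ligase subunit that recognises beta-catenin, rose by 0.48 ± 0.13 (adjusted p = 0.0328) and DACT1, outside the rule for naming, by 0.56 (adjusted p = 0.0422, limma). FBXW11 lost its call without any 1 of the 6 arrays (adjusted p up to 0.116), DACT1 without any of 5 of them (up to 0.138) and DIXDC1 without any of 4 (up to 0.115, limma). DACT3, DIXDC1 and DACT1 also missed the threshold under the all-gene background (adjusted p 0.0689, 0.165 and 0.180, limma).

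Of 21 nuclear partners of beta-catenin, 2 rose and 2 fell (median 0.02, and 2 to 4 passing without any 1 array). SOX7, a factor that can restrain beta-catenin, rose by 1.04 ± 0.20 (adjusted p = 0.00791, limma). The Groucho corepressor TLE2 was above background on all aspirin arrays and on no control array. It was at least 1.39-fold higher (adjusted p = 0.00512, and 0.0590 under the all-gene background, limma). TLE2 met the filter on its aspirin arrays alone, so the filter favoured a rise over a fall. TLE4, a relative of TLE2, fell by 0.55 (adjusted p = 0.0183, limma). RUVBL1, a chromatin ATPase, fell by 0.62 (adjusted p = 0.0121, limma). The call of TLE4 was lost without aspirin replicate 2 or 3 or control replicate 3 (adjusted p up to 0.0747, limma). RUVBL1 lost its call without aspirin replicate 3 (adjusted p = 0.0527, limma).

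Beta-catenin target genes outside those above moved both ways. Among the 22 tested 6 fell and 2 rose, leaving 14 that did not pass, and the median was 0.16. With the replicate block 6 fell and 5 rose, in a fit where 33.6% of all genes passed. Aspirin and control arrays did not overlap for 9 genes higher and 6 lower with aspirin, against 39.1% of all genes tested (20.7% higher and 18.4% lower). SOX9, a transcription factor of progenitor cells, had 8.97, 9.02 and 8.64 with aspirin, against 6.59, 7.44 and 7.44 in controls, and rose by 1.72 ± 0.24 (adjusted p = 0.00242, limma). RUNX2, a bone and tooth transcription factor, rose by 1.49 ± 0.18 (adjusted p = 0.00134, limma), or by 0.22 with the all-gene background; both were named after their values were seen. MMP7, the protease matrilysin, had 4.33, 4.40 and 4.43 with aspirin, against 6.23, 7.45 and 7.15 in controls. It was above background on no aspirin array and at least 4.35-fold lower (adjusted p = 0.000948, limma), a call that did not hold under the all-gene background (-0.26, adjusted p = 0.0580, limma). MMP7 met the filter on its control arrays alone, so the filter favoured a fall over a rise.

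ID2, an inhibitor of basic helix-loop-helix factors, had 5.61, 5.65 and 5.55 with aspirin, against 7.75, 7.30 and 7.38 in controls (-1.88 ± 0.15, adjusted p = 0.000371, limma), and -0.31 with the all-gene background. BIRC5 (survivin) and PTTG1 (securin), which act in mitosis, fell by 3.36 (adjusted p = 0.000104) and 1.63 (adjusted p = 0.000879, limma). BIRC5 was above background on 2 of 3 aspirin arrays, and its fall was -0.83 with the all-gene background. CLDN1, a tight junction protein, and EPHB3, an ephrin receptor, fell by 0.99 (adjusted p = 0.00789) and 0.69 (adjusted p = 0.0181, limma), and this pair too was named after the values were seen. EPHB3 lost its call without aspirin replicate 1 or 3 or control replicate 3 (adjusted p up to 0.0585) and under the all-gene background (0.0820, limma). MYC and CCND1, the best known targets, did not pass. MYC had 12.10, 11.76 and 11.73 with aspirin, against 11.16, 11.43 and 11.70 in controls (0.44 ± 0.18, adjusted p = 0.126, limma). CCND1, which encodes cyclin D1, had 13.18, 13.22 and 12.96 with aspirin, against 12.93, 12.70 and 12.80 in controls (0.31 ± 0.14, adjusted p = 0.157, limma). For both, all aspirin arrays were above all control arrays.

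Of 18 genes of the planar polarity and calcium branches, 2 rose and 1 fell (median 0.03, and 2 to 4 passing without any 1 array). SCRIB, a polarity scaffold, rose by 1.05 ± 0.16 (adjusted p = 0.00380) and CELSR3, a polarity cadherin, by 0.82 ± 0.13 (adjusted p = 0.00383, limma), or by 0.09 with the all-gene background. PRICKLE2, a cytoplasmic polarity protein, fell by 0.65 (adjusted p = 0.0160, up to 0.0647 without any 1 of 4 arrays, limma). Among 4 genes tested from the list of other receptors LRP4 rose (0.77 ± 0.15, adjusted p = 0.00944, limma) and 0 fell. Of 6 further secreted antagonists IGFBP4, an IGF-binding protein also described as a Wnt antagonist, rose (1.12 ± 0.28, adjusted p = 0.0253, and up to 0.0841 without any 1 of the aspirin arrays, limma) and 0 fell. Of 4 genes for Wnt secretion and extracellular agonists 0 passed by limma, with 2 at an unadjusted p under 0.05.

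**Figure D4:**
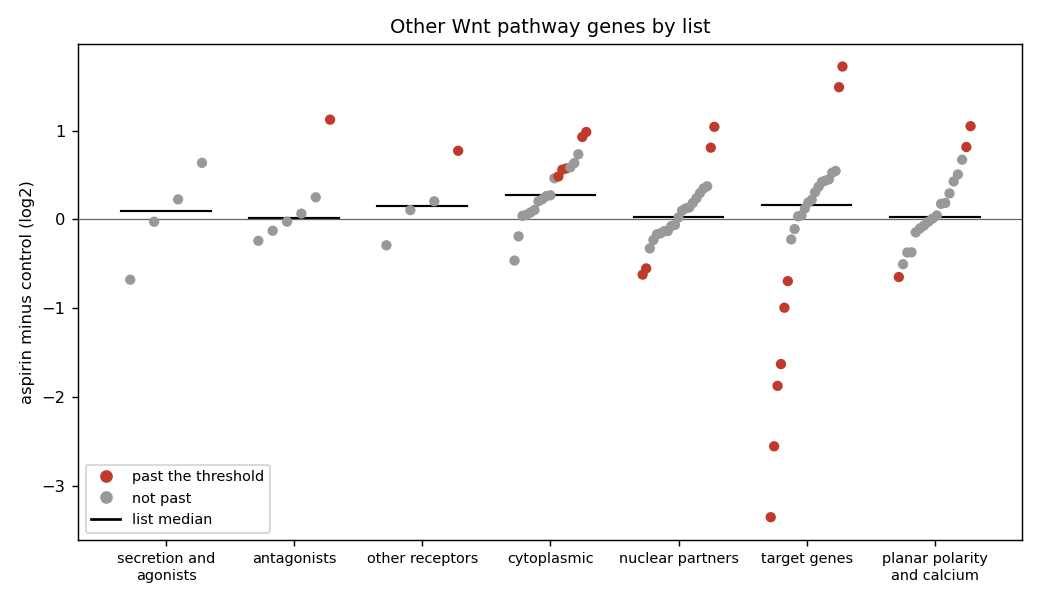
Difference of each tested gene of the 7 other Wnt lists, aspirin minus control on the log2 scale, with red points for genes past the threshold, grey points for the others and a black line at each list's median. The medians lie between 0.02 and 0.27, and the target gene list spans -3.36 to 1.72.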

How the data were processed

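Per the file headers, the authors deposited a signal intensity and a detection value for each gene symbol on 6 Illumina arrays, not normalized between arrays; per the submitters' processing notes, GenomeStudio 1.9.0 was used. Annotation of the probes and the build: not given in the sources used here. Deposited detection values average 0.994 over the 1000 brightest and 0.170 over the 1000 dimmest genes, so each was read as a score, 1 minus the p-value. The deposited matrix of intensity values is the signal minus 1 constant per array, with many names shifted by 1 or 2 rows, and served as an alternative after realignment.

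Background was removed with normexp, its mean and SD on each array taken from 27647 genes that have detection scores on a grid of 1/770 (within 0.005 steps). Signals were then offset by 16, converted to log2 and quantile normalized with limma 3.58.1 in R 4.3.3. The gene listed at signal 0 (1 in all) was dropped. The filter admitted 722 genes by signal alone. Aspirin was compared with control by lmFit and eBayes over all genes tested, a fit tried on simulated data with an outcome not given here. Same-numbered arrays had correlated deviations from their group means (0.509, 0.520 and 0.323), so numbers were taken as pairs, from the data and not the labels. The number of arrays limits the precision. Every gene of the rule is reported; from each other list the genes past the threshold, up to 4 by p, with MYC and CCND1, and exceptions are marked. Members, lists and settings were chosen with earlier results of these data known.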

Additional observations from a re-analysis of the deposited data

How the results depend on the processing

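Over 22 alternatives, of which the filter on the signal alone was chosen after the data were seen, no Wnt gene called in either fit changed direction. The replicate block gave 16 of the 51 genes (7 higher, 9 lower) and 5333 of all genes past the threshold; it removed no call of the 6 Wnt genes. Median scaling and cyclic loess each gave 5 lower, and median scaling put 40.1% of all calls on the higher side, against 51.8% as reported. The chip 1 arrays alone gave 1 Wnt gene (0 higher, 1 lower) and 934 of all genes. This is the same fit as the one without both replicate 2 arrays, and the 22 alternatives count it under both names. Leaving out 1 array or 1 replicate pair gave 1 to 9 Wnt genes (0 to 3 higher, 1 to 6 lower) and 476 to 3352 of all genes; the fewest, for all genes, came without both replicate 3 arrays. Fewer arrays enter these fits.

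In the same fits the counts were 0 to 2 for Wnt secretion, 0 to 1 for antagonists, 0 to 1 for other receptors, 0 to 5 for cytoplasmic genes, 0 to 4 for nuclear partners, 6 to 8 for target genes and 0 to 4 for planar polarity. With the replicate block 33.6% of all genes tested passed. In that fit Wnt secretion gave 2 calls of 4 tested, cytoplasmic genes 10 of 19, planar polarity 8 of 18 and target genes 11 of 22 (5 higher, 6 lower). Chip 1 alone gave 0 antagonists, 0 other receptors, 1 cytoplasmic gene and 1 nuclear partner. Median scaling gave 1 for Wnt secretion and 0 for antagonists, and no filter gave 0 for antagonists. Other receptors gave 2 with the all-gene background and 2 with no background correction. Cytoplasmic genes gave 2 with the all-gene background, 3 with no background correction, 3 with the detection score alone and 3 with no filter. Of all genes 5.89% passed on chip 1 alone, 17.2% with median scaling and 8.26% with no filter. The share was 14.2% with the all-gene background, 20.5% with no background correction and 20.2% with the detection score alone. The cause of the changes in the list counts was not tested.

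Uncalled values near 0 changed sign. Over the left-out fits TCF7L1 ran from -0.059 to 0.22, WNT2B from -0.22 to 0.10, WNT3 from -0.0087 to 0.26, WNT6 from -0.47 to 0.074, WNT7B from -0.39 to 0.10 and WNT9B from -0.018 to 0.30. On chip 1 WNT2B was 0.10 and WNT9B -0.018. Signals near background limit what can be said of the 15 genes not tested.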
